A study of Mus musculus with 54 samples.

Results

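The 8 genes described here encode the cryptochromes and proteins that set how long cryptochrome and period proteins last. They are *Cry1* and *Cry2*, the casein kinase 1 genes *Csnk1d* and *Csnk1e*, the kinase gene *Gsk3b*, and the ubiquitin ligase subunit genes *Fbxl21*, *Btrc* and *Fbxw11*. They were taken by symbol, whatever their values, and all 8 were found among the 30031 genes of the count table. RNA was measured in the suprachiasmatic nucleus (SCN), the paired hypothalamic nucleus that holds the master circadian clock of mammals, by RNA-seq of laser-captured tissue. The groups were 6 timepoints of a cycle with 12 hr of light and 12 hr of dark, ZT2, ZT6 and ZT10 in the light and ZT14, ZT18 and ZT22 in the dark, where zeitgeber time (ZT) counts hours from lights on. All animals were untreated male C3H/HeH mice of 10 to 12 weeks, and each timepoint had 3 replicates (A, B and C), each a pool of 5 mice sequenced in 3 lanes. A p-value therefore measures the spread between pools and not between mice, and in tissue samples fewer cells of a type and less RNA per cell cannot be told apart.

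In the mammalian clock, CLOCK and BMAL1 switch on the period and cryptochrome genes from E-box elements, and the PER and CRY proteins return to the nucleus and repress them. The length of each round depends on how fast these repressors are destroyed. Casein kinases 1 delta and epsilon mark PER proteins with phosphates, the F-box proteins BTRC and FBXW11 recognise the marked PER, FBXL21 is an F-box protein that binds CRY, and GSK3B phosphorylates several clock proteins, CRY2 among them. Much of this control acts on proteins, which were not measured here.

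The replicates held between 15412981 and 35820945 reads assigned to genes, ZT18 C the fewest. In a principal component analysis of the 500 most variable genes the libraries fell into 3 clusters, the first of ZT2 and ZT22, another of ZT6 and ZT10, and the last of ZT14 and ZT18. Only 0.216% of all tests between the timepoints of 1 cluster were called, against 18.6% of tests over all 15 pairs of timepoints. The study describes its own component plot as separating libraries by timepoint and by sequencing batch. From the timing of key clock genes it takes any batch effects to be minimal, and it reports concordant qPCR for the SCN samples. Here time of day and whatever else separates these clusters cannot be told apart. ZT18 C stood apart on the third component (53.9, against 1.12 and 1.55 for ZT18 A and B) and correlated least with its own timepoint (mean r 0.866). Of the labelled tissue, all 7 SCN neuron markers (*Avp*, *Vip*, *Grp*, *Nms*, *Six6*, *Lhx1* and *Prok2*) were measured. Their summed level was 1162 to 4775 CPM (reads scaled to the library total), which does not give the level of any single marker. Of 29 markers of glia, vessels and other neurons, all were measured too and none was at 0 throughout. Being measured therefore cannot tell the SCN from other tissue here.

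Over the day 6 of the 8 genes changed, beside 44% of all 18941 genes tested (edgeR quasi-likelihood F-test over the 6 timepoints, adjusted p under 0.05). Adjusted p-values (q) were corrected over all genes by the Benjamini-Hochberg method. *Cry1* (q = 0.00161), *Csnk1e* (q = 0.00718) and *Fbxl21* (q = 0.00715) were highest at ZT6 or ZT10 and lowest in the night. *Cry2* (q = 0.00162), *Csnk1d* (q = 0.0324) and *Btrc* (q = 0.049) were highest at ZT14 and lowest at ZT6. *Gsk3b* (q = 0.327) and *Fbxw11* (q = 0.849) did not pass. Cycling genes were those that also passed JTK_CYCLE, a rank test for a 24 hr rhythm (exact p under 0.05, not adjusted over genes). *Cry1*, *Csnk1d*, *Csnk1e* and *Fbxl21* did, 4 of 8 beside 29.9% of all genes. The median log2 range between the highest and the lowest timepoint was 1.15 for the 8 genes and 1.63 for all genes tested. The latter include genes with few reads, and the 2 medians were not matched for level.

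**Figure D1:**
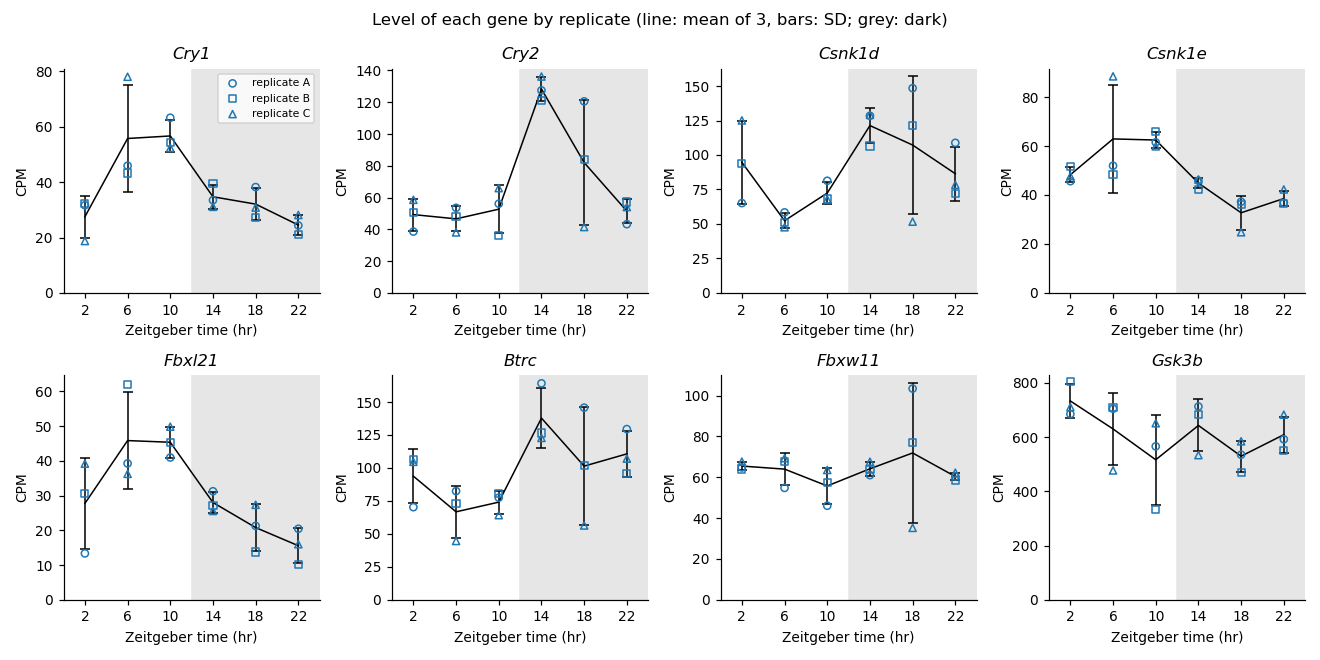
Level of the 8 genes in CPM (vertical axis) against zeitgeber time in hours (horizontal axis), with open symbols for replicates A, B and C, a line through the means of 3 and bars for the SD. *Cry1*, *Csnk1e* and *Fbxl21* are highest at ZT6 and ZT10, *Cry2*, *Csnk1d* and *Btrc* at ZT14, and replicate C at ZT18 lies far below A and B in *Cry2*, *Csnk1d*, *Btrc* and *Fbxw11*.

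Levels of different genes can be set side by side only per length, here as CPM per kilobase of annotated exon. On that scale *Gsk3b* was the most abundant with a mean of 62.1 over the 18 replicates, at the percentile 94.5 of all genes tested. *Csnk1d* (17.7) and *Fbxw11* (14.7) followed, then *Cry1* (11.5) and *Cry2* (10.8). *Csnk1e* (7.33), *Fbxl21* (6.37) and *Btrc* (5.76) were lowest, still at percentiles from 65.3 to 70.4. The length used was that of all annotated exons of a gene together, 16908 bases for *Btrc* and 4327 for *Fbxw11*. The order therefore depends on the annotation, since the transcripts in use may be shorter. None of the 8 was near the limit of detection, as the lowest count of any of them in any library was 236 reads (*Fbxl21*, ZT2 A). All values below are CPM without the division by length.

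*Cry1* encodes a core repressor of the clock and lies on the minus strand of GRCm38 chr10:85131700-85185064. Its 3 replicates gave 31.7, 32.1 and 18.7 CPM at ZT2, 45.9, 43.3 and 78.1 at ZT6, and 63.3, 54.4 and 52.4 at ZT10. In the dark they gave 33.5, 39.6 and 31.1 at ZT14, 38.2, 27.1 and 30.8 at ZT18, and 24.3, 21.0 and 28.1 at ZT22. All 6 values of ZT6 and ZT10 lay above the other 12. The mean went from 56.7 ± 5.79 (SD, n = 3) at ZT10 to 24.5 ± 3.56 at ZT22, a fold of 2.31, and the log2 difference was 1.21 (SE 0.26, q = 0.00172). *Cry1* had 6 of its 15 pairs of timepoints called, each of them between ZT6 or ZT10 and one of ZT2, ZT18 and ZT22. JTK_CYCLE placed its peak at ZT10 (exact p = 0.000246). The order of the means was ZT10, ZT6, ZT14, ZT18, ZT2 and ZT22, and no neighbours in it were called different, the nearest being ZT6 against ZT14 (q = 0.0599).

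*Cry2* encodes the paralogous repressor and lies on the minus strand of chr2:92403646-92434043. It gave 38.6, 50.7 and 58.6 CPM at ZT2, 53.5, 48.2 and 38.0 at ZT6, and 56.1, 36 and 65.9 at ZT10. At ZT14 it gave 127, 121 and 136, at ZT18 121, 84.0 and 41.4, and at ZT22 43.2, 57.2 and 54.0. The ZT14 replicates lay above all other replicates, with ZT18 A just under the lowest of them. The ZT14 mean of 128 ± 7.47 (SD, n = 3) was 2.75-fold that of ZT6, 46.6 ± 7.86, and the log2 difference of ZT6 from ZT14 was -1.46 (SE 0.30, q = 0.00218). The 4 pairs called were ZT14 against ZT2, ZT6, ZT10 and ZT22. *Cry2* passed the time test but not JTK_CYCLE (exact p = 0.0907). The ZT18 mean, 82.0 ± 39.6, rested on 2616 and 3768 reads in replicates B and A and only 679 in replicate C, and without ZT18 C *Cry2* was called cycling and its time test had q = 6.63e-05. An overlapping transcript, *D930015M05Rik*, shares 295 exon bases with *Cry2* and held at most 107 reads. Of the 8 genes *Cry2* was the only one to pass the time test over ZT2, ZT14, ZT18 and ZT22 alone, where 28.6% of all genes passed.

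Both cryptochrome promoters hold letters of the E-box family, which is why they are shown. The lines below give bases -250 to -51 before the RefSeq start of each gene (GRCm38.p6, minus strand, read 5′ to 3′), chr10:85185105-85185304 for *Cry1* and chr2:92434120-92434319 for *Cry2*, with capitals marking CACGTG (E-box) and AACGTG, the reverse complement of CACGTT (E′-box).
Cry1: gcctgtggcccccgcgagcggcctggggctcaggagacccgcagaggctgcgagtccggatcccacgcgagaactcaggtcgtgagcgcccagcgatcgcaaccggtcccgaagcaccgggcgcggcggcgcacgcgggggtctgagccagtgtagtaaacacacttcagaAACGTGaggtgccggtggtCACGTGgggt
Cry2: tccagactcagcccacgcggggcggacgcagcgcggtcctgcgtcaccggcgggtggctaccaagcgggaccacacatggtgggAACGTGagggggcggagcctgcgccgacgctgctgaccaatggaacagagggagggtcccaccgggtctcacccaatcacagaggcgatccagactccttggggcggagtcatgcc
In *Cry1* the E-box began 60 bases and the E′-box 79 bases before the start, and in *Cry2* the E′-box began 166 bases before it. Windows of 300 bases (250 before to 50 after the start) were searched on both strands for CACGTG, for CACGTT and for the D-box TTATGNAA, which do not overlap each other in these promoters. Of all 32851 such windows, 7.15% held CACGTG, 4.68% CACGTT and 3.38% the D-box. RefSeq gave 9 windows for 6 of the 8 genes, and those of *Csnk1e*, *Fbxl21*, *Fbxw11* and *Gsk3b* held none of the 3 motifs. A match is a description of letters and not a tested binding site.

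The study designed separate primers for 2 first exons of *Cry1*, which the counts per gene cannot tell apart. It describes exon 1b as an apparent alternative start, which it detected by RT-PCR. By qPCR it reports that the transcripts of the 2 starts cycled in antiphase. The primers are shown since they mark which start an annotated transcript uses.
Exon 1a forward: ttccaacgtgggcatcaac
Exon 1a reverse: gtccccgaatcacaaacagac
Exon 1b forward: aaagacacggctggcacata
Exon 1b reverse: agacgattgtgtggcggaat
Of the 4 *Cry1* transcripts in the GENCODE annotation, 1 (Cry1-201) held both exon 1a primers, 104 bases apart from end to end, and none held the exon 1b pair. The *Cry1* values above are therefore sums over starts.

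*Csnk1d* encodes casein kinase 1 delta, which phosphorylates PER proteins, and lies on the minus strand of chr11:120961749-120991330. Its replicates gave 65.1, 93.9 and 125 CPM at ZT2, 58.3, 51.1 and 47.6 at ZT6, and 81.3, 68.1 and 67.8 at ZT10. They gave 128, 106 and 129 at ZT14, 148, 121 and 51.6 at ZT18, and 109, 72.0 and 78.3 at ZT22. The ZT6 replicates were the lowest apart from ZT18 C, which lay among them. The mean was 121 ± 12.9 (SD, n = 3) at ZT14 and 52.3 ± 5.5 at ZT6, 2.32-fold apart, with a log2 difference of ZT6 from ZT14 of -1.21 (SE 0.30, q = 0.00748). ZT6 also lay below ZT2 (log2 difference 0.86 of ZT2 from ZT6, q = 0.0348) and below ZT18 (-1.04, q = 0.0212), and these 3 pairs were all that was called. JTK_CYCLE placed the peak at ZT18 (exact p = 0.0319). The cycling call of *Csnk1d* was lost with the JTK_CYCLE p adjusted over all genes, which left *Cry1*, *Csnk1e* and *Fbxl21*, on the deposited normalized values, on the recovered reads, with limma's cosinor regression and in 9 of the 18 fits without 1 replicate. The time test of *Csnk1d* missed the threshold when any of 7 replicates was left out, the largest q being 0.0873 without ZT6 C, and on the reads recovered from the second deposited table (q = 0.102), while without ZT18 C it gave q = 0.000966.

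*Csnk1e* encodes casein kinase 1 epsilon, the close relative of delta, and lies on the minus strand of chr15:79417856-79455566. It gave 45.6, 51.5 and 47.7 CPM at ZT2, 52.0, 48.3 and 88.5 at ZT6, and 61.5, 66.0 and 59.9 at ZT10. The dark values were 45.9, 42.4 and 46.3 at ZT14, 37.2, 36.2 and 24.8 at ZT18, and 36.8, 36.6 and 42.3 at ZT22. Day and night replicates barely overlapped, with the lowest light value, 45.6, just below the highest dark value, 46.3. The means ran from 62.9 ± 22.2 (SD, n = 3) at ZT6 to 32.7 ± 6.91 at ZT18, a fold of 1.92, and ZT10 exceeded ZT18 by a log2 of 0.93 (SE 0.22, q = 0.0095). Its 4 called pairs were ZT6 and ZT10 each against ZT18 and ZT22. JTK_CYCLE gave ZT6 as the peak (exact p = 0.000246). An antisense gene, *Gm16059*, shares 267 exon bases with *Csnk1e* and held at most 98 reads, and where reads are counted without strand the source of reads on those bases cannot be told apart.

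*Gsk3b* encodes glycogen synthase kinase 3 beta and lies on the plus strand of chr16:38089001-38246084. Its lowest value was 332 CPM (ZT10 B), its median over the 18 replicates 622, and its highest was 804 (ZT2 B). The ZT2 replicates gave 685, 804 and 711 CPM and the ZT10 replicates 566, 332 and 651, so the timepoints with the highest and the lowest mean did not overlap. The means were 733 ± 62.5 and 517 ± 165 (SD, n = 3), 1.42-fold apart. None of its 15 pairs was called and JTK_CYCLE gave an exact p of 0.481.

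*Fbxl21* encodes an F-box protein that binds CRY, and lies on the plus strand of chr13:56522472-56537898. It gave 13.3, 30.7 and 39.2 CPM at ZT2, 39.3, 62.0 and 36.3 at ZT6, and 41.0, 45.3 and 49.8 at ZT10. It gave 31.2, 27.2 and 25.6 at ZT14, 21.3, 13.7 and 27.3 at ZT18, and 20.4, 10.2 and 16 at ZT22. The replicates of ZT6 and ZT10 lay above every dark replicate, and ZT2 spread from the level of ZT22 to that of ZT6. *Fbxl21* had the largest fold of the 8 genes between timepoint means, 2.95, from 45.8 ± 14.1 (SD, n = 3) at ZT6 to 15.6 ± 5.11 at ZT22, and ZT6 exceeded ZT22 by a log2 of 1.56 (SE 0.36, q = 0.0027). The 4 called pairs were ZT6 and ZT10 each against ZT18 and ZT22, the same pairs as for *Csnk1e*. JTK_CYCLE placed its peak at ZT10 (exact p = 0.0015).

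*Btrc* encodes beta-TrCP1, which recognises phosphorylated PER, and lies on the plus strand of chr19:45363734-45530013. Its values were 70.2, 106 and 105 CPM at ZT2, 82.4, 73.1 and 44.6 at ZT6, and 77.5, 80.5 and 64.2 at ZT10. They were 164, 126 and 123 at ZT14, 146, 102 and 56.3 at ZT18, and 129, 95.5 and 107 at ZT22. ZT14 lay above all replicates of ZT2, ZT6 and ZT10, as ZT22 lay above all of ZT6 and ZT10. The means were 138 ± 22.9 (SD, n = 3) at ZT14 and 66.7 ± 19.7 at ZT6, 2.07-fold apart, with a log2 difference of ZT6 from ZT14 of -1.05 (SE 0.29, q = 0.0149). ZT10 against ZT14 was the only other pair called (-0.90, q = 0.0411). The time test stood close to the threshold and missed it when any of 14 replicates was left out, with the largest q, 0.140, without ZT14 A, while without ZT18 C it gave q = 0.00735. JTK_CYCLE did not pass (exact p = 0.144). The pseudogene *Gm6807* shares 235 exon bases with *Btrc* and held 225 to 580 reads per replicate, so the split of reads between them is uncertain.

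*Fbxw11* encodes beta-TrCP2, the paralog of beta-TrCP1, and lies on the plus strand of chr11:32642724-32746816. Outside ZT18 its 15 replicates lay between 46.1 and 69.3 CPM. At ZT18 it gave 103, 77.1 and 35.2 CPM, which are the 2 highest and the lowest values of all. The highest and lowest means were 71.9 ± 34.4 (SD, n = 3) at ZT18 and 55.8 ± 8.91 at ZT10, 1.29-fold apart and overlapping, and none of the 15 pairs was called. Without ZT18 C the other ZT18 replicates averaged 89.96 CPM and the time test gave q = 0.049, so that 7 of the 8 genes then passed, beside 48.6% of all genes, and 6 were called cycling, *Cry2* and *Btrc* in addition, beside 34.4% of all genes.

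Taking the light against the dark, 9 replicates against 9, *Cry1*, *Csnk1e* and *Fbxl21* were higher in the light, and *Cry2*, *Csnk1d* and *Btrc* were lower. That is 6 of 8 called, beside 23.8% of all genes, with 3 higher beside 9.56% and 3 lower beside 14.3%. The q-values here rest on the spread within timepoints and do not measure the spread between the timepoints of 1 phase. For *Cry1* the means in the light were 27.5 CPM at ZT2, 55.8 at ZT6 and 56.7 at ZT10. The median light minus dark log2 difference was -0.01 over the 8 genes and -0.13 over all genes tested. *Fbxl21* moved most (log2 difference 0.89, SE 0.20, q = 0.00409), from a dark range of 10.2 to 31.2 CPM with a median of 21.3 to a light range of 13.3 to 62.0 with a median of 39.3. For *Csnk1e* (0.58, SE 0.12, q = 0.00261) the dark replicates ran from 24.8 to 46.3 CPM, median 37.2, and the light ones from 45.6 to 88.5, median 52.0. For *Cry1* (0.56, SE 0.15, q = 0.0104) they ran from 21.0 to 39.6, median 30.8, and from 18.7 to 78.1, median 45.9. The light ranges of these 3 genes overlapped the dark ones at their lower end, through ZT2 replicates.

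In the other direction *Cry2* differed by a log2 of -0.72 (SE 0.17, q = 0.00571), with 36 to 65.9 CPM in the light, median 50.7, and 41.4 to 136 in the dark, median 84.0. *Btrc* differed by -0.58 (SE 0.17, q = 0.0174), with 44.6 to 106 CPM in the light, median 77.5, and 56.3 to 164 in the dark, median 123. *Csnk1d* differed by -0.55 (SE 0.17, q = 0.0272), with 47.6 to 125 CPM in the light, median 67.8, and 51.6 to 148 in the dark, median 109. The *Csnk1d* call was lost when any of 6 replicates was left out (largest q 0.0651, without ZT18 A), on the recovered reads (q = 0.0779) and under upper-quartile normalization (q = 0.0502). In all 3 the ranges overlapped, and the lowest dark value of *Csnk1d*, *Cry2* and *Btrc* was ZT18 C. The overlap did not rest on that library alone. All ZT22 replicates of *Cry2* (43.2, 57.2 and 54.0 CPM) also lay inside its light range. The *Csnk1d* mean was higher at ZT2 (94.7) than at ZT22 (86.4), while that of *Btrc* was higher at ZT22 (111) than at ZT2 (93.7). *Gsk3b* (0.07, SE 0.13, q = 0.745) and *Fbxw11* (-0.09, SE 0.15, q = 0.730) did not pass.

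The light against dark pair that lay inside 1 cluster was ZT2 against ZT22. None of the 8 was called there, beside 0.216% of the tests of all genes over the 3 pairs inside clusters (edgeR). *Fbxl21* came nearest, higher at ZT2 by a log2 of 0.84 (SE 0.35, unadjusted p = 0.0295 and q = 1, edgeR), and the replicates overlapped. *Csnk1e* differed by 0.32 (SE 0.22) and *Cry1* by 0.17 (SE 0.25), both with the sign of the light and dark comparison. *Cry2* (-0.06, SE 0.30) and *Btrc* (-0.24, SE 0.29) also had its sign, while *Csnk1d* (0.13, SE 0.30) had the opposite sign. Over the 3 pairs inside clusters, 0 of 24 tests of the 8 genes were called by edgeR or DESeq2, with 3 at an unadjusted p under 0.05. The other 2 of those were at ZT14 against ZT18, *Cry2* (0.64, SE 0.30, unadjusted p = 0.0449) and *Csnk1e* (0.45, SE 0.22, unadjusted p = 0.0499), both higher at ZT14 and with q of 0.351 and 0.369. Over all 15 pairs 23 of 120 tests were called (19.2%), beside the 18.6% of all genes. Of the variance of the 6 timepoint means, the part between clusters was 98.5% for *Cry1* and 74.4% to 81.1% for the other 5 genes past the time test, with a median of 77.2% over all genes tested.

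**Figure D2:**
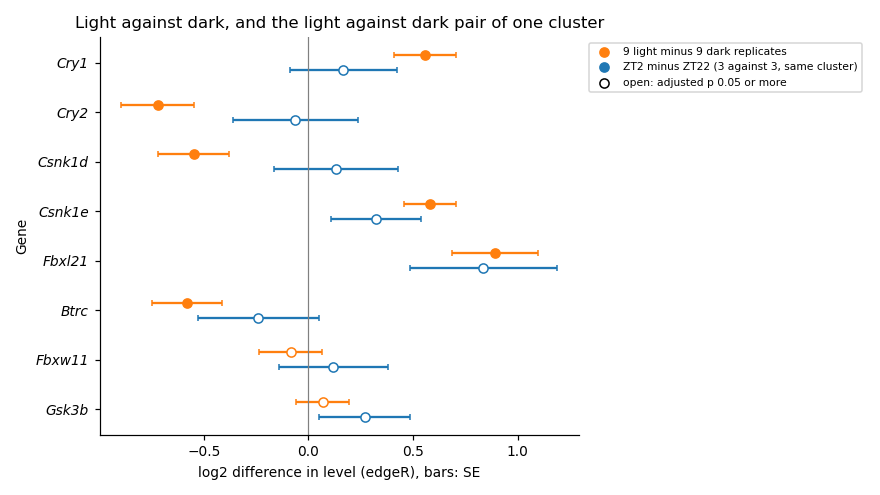
Differences in level on the log2 scale (horizontal axis, bars are SE) for the 8 genes (vertical axis), for 9 light minus 9 dark replicates (orange) and for ZT2 minus ZT22, 3 against 3 inside 1 cluster (blue), with filled points where the adjusted p was under 0.05. The 6 filled points are all orange, from -0.72 for *Cry2* to 0.89 for *Fbxl21*, and none of the blue points is filled. Of the tests of all genes inside clusters, 0.216% were called.

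Within each pair of related genes the mean balance differed between the light and the dark replicates. The permutation test exchanged single replicates, though each phase held 3 timepoints of 3 replicates. Its p-values therefore do not measure the spread between the timepoints of 1 phase. The log2 ratio of *Cry1* to *Cry2* CPM averaged -0.16 ± 0.75 (SD, n = 9) in the light and -1.39 ± 0.55 (n = 9) in the dark, a difference of 1.22 (exact two-sided permutation test, p = 0.00156, adjusted p = 0.00234 over 3 ratios). The ratio was highest at ZT6, 0.22 ± 0.70 (n = 3), and lowest at ZT14, -1.88 ± 0.26. For *Csnk1d* to *Csnk1e* the averages were 0.30 ± 0.62 and 1.38 ± 0.37, a difference of -1.08 (exact permutation p = 0.000411, adjusted p = 0.00123). That ratio ran from -0.21 ± 0.59 at ZT6 to 1.59 ± 0.49 at ZT18. *Btrc* to *Fbxw11* moved least, from 0.82 ± 0.31 in the dark to 0.31 ± 0.45 in the light, a difference of -0.51 (exact permutation p = 0.00868, adjusted p = 0.00868).

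The light and dark ranges overlapped for each ratio. The *Csnk1d* to *Csnk1e* ratio had an SD of 0.09 at ZT14 and 0.59 at ZT6, and for *Cry1* to *Cry2* at ZT6 1 replicate (C) gave 1.03 and the others -0.22 and -0.15. All 3 differences shrank without ZT6 and ZT10, to 0.54, -0.46 and -0.33, and then missed the threshold (smallest exact permutation p = 0.0909). For ZT2 against ZT22 alone they were 0.21, -0.22 and -0.37, in a design of 3 against 3 whose smallest two-sided p is 0.1.

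**Figure D3:**
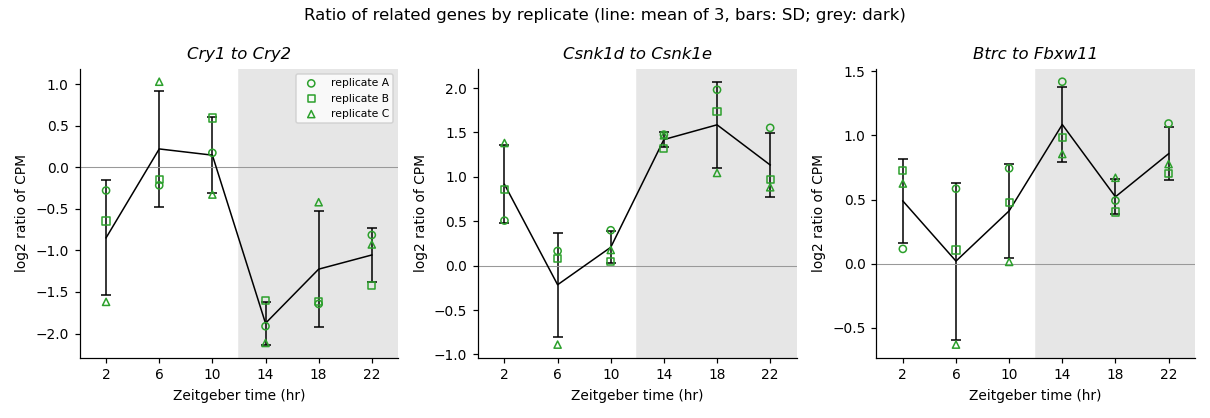
Log2 ratio of CPM (vertical axis) of *Cry1* to *Cry2*, *Csnk1d* to *Csnk1e* and *Btrc* to *Fbxw11* against zeitgeber time in hours (horizontal axis), with symbols for replicates, lines through the means of 3 and bars for the SD. The *Cry1* to *Cry2* ratio lies near 0 at ZT6 and ZT10 and reaches -1.88 at ZT14, and the *Csnk1d* to *Csnk1e* ratio runs the other way, from -0.21 at ZT6 to 1.59 at ZT18.

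Marker levels of several cell types moved with the same clusters. The summed CPM of the 7 SCN neuron markers ran from 3737 to 4775 at ZT6 and ZT10, where *Cry1*, *Csnk1e* and *Fbxl21* were highest, from 1693 to 2984 at ZT22 and ZT2, and from 1162 to 2176 at ZT14 and ZT18. That sum contains rhythmic neuropeptide genes, *Avp* and *Prok2* among them. The 4 oligodendrocyte markers (*Mbp*, *Mobp*, *Mog* and *Cnp*) summed to 3464 to 4909 at ZT14 and ZT18, where *Cry2* and *Csnk1d* had their highest means (*Btrc* was highest at ZT14 and next at ZT22), to 961 to 2846 at ZT22 and ZT2, and to 601 to 2214 at ZT6 and ZT10. The 5 astrocyte markers were lowest at ZT6 and ZT10 (1367 to 1835) and highest at ZT22 and ZT2 (2860 to 4252). Microglial markers summed to at most 165 and endothelial markers to at most 189. Markers of neighbouring hypothalamic neurons summed to between 16.8 and 87.3 and those of telencephalic excitatory neurons to between 16.3 and 218 over all replicates. The part of cell makeup in the results above was not tested.

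**Figure D4:**
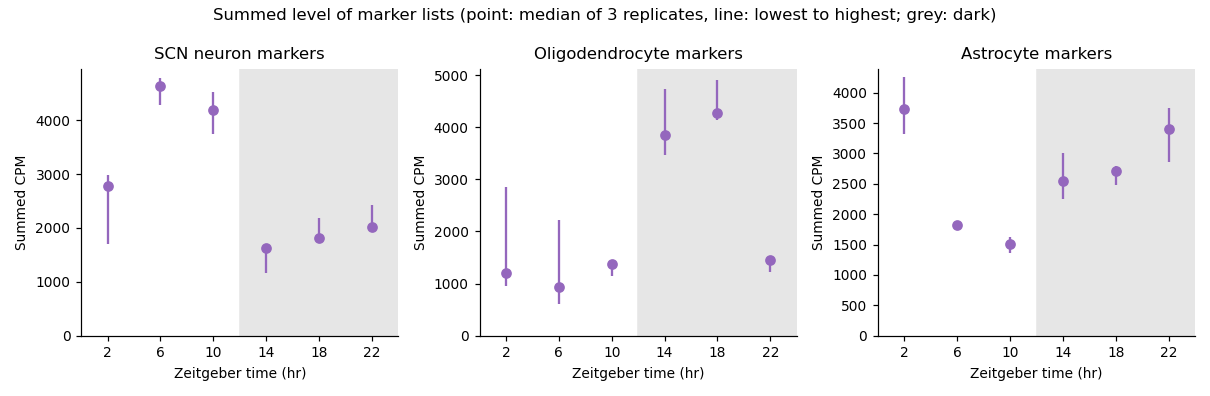
Summed CPM (vertical axis) of the SCN neuron, oligodendrocyte and astrocyte marker lists against zeitgeber time in hours (horizontal axis), with points for the median of 3 replicates and lines from the lowest to the highest. SCN neuron markers are highest at ZT6 and ZT10, between 3737 and 4775, and oligodendrocyte markers at ZT14 and ZT18, between 3464 and 4909.

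The remaining genes of the pathway were taken from a list of 42 in 8 groups, all of which were tested. Of these 30 changed over the day (beside 44% of all genes) and 23 were called cycling (beside 29.9%). In the light 13 were higher (beside 9.56%) and 5 lower (beside 14.3%). Their median log2 range over the timepoints was 1.17, and that of all genes, which include genes with few reads, was 1.63. Of the 30 that changed, 13 (43.3%) had their highest mean CPM at ZT6. By the mean of log2 CPM, an unlike measure, 20.5% of all genes that changed were highest at ZT6. The counts by group below stand beside the same shares of all genes. These were 44% changed, 29.9% cycling and 9.56% higher in the light. Each group held few genes, and no group was tested against these shares.

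The substrates of this machinery, the period genes, all changed, cycled and were higher in the light. *Per2* fell between ZT6 and ZT22, 123 ± 59.97 CPM (SD, n = 3) against 10.9 ± 4.02 (q = 3.03e-07), *Per1* from 69.97 ± 27.9 to 8.98 ± 0.197 between the same timepoints (q = 1.37e-06), and *Per3* from 83.1 ± 41.7 to 18.0 ± 1.25 (q = 0.00116). Their folds of 11.4, 7.79 and 4.61 all exceeded those of the 8 genes, of which *Fbxl21* had the largest at 2.95. In the core of the SCF ubiquitin ligase, to which the F-box proteins attach, 3 of 5 genes changed, beside 44% of all genes. All 3 were higher in the light, beside 9.56% of all genes. *Rbx1*, the RING subunit that recruits the E2 enzyme, had 560.5 ± 64.6 CPM at ZT2 and 263 ± 8.24 at ZT14 (q = 0.00012). *Nedd8*, the modifier that activates cullins, had 519 ± 16 at ZT6 and 289 ± 33.0 at ZT14 (q = 0.00136). The scaffold gene *Cul1* did not pass (q = 0.338).

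Among 6 other genes of CRY ligases 3 changed, beside 44% of all genes. *Ddb1*, the adaptor of CUL4 ligases, fell from 573 ± 68.5 CPM at ZT2 to 143 ± 5.61 at ZT10 (q = 1.59e-06). *Cul4b*, a cullin scaffold of those ligases, had 67.3 ± 18.2 at ZT2 and 25.5 ± 6.1 at ZT10 (q = 0.0168). Of 3 deubiquitinases 2 changed, *Usp14* of the proteasome with 331 ± 18.4 at ZT22 and 168 ± 15.7 at ZT6 (q = 9.43e-05), and *Usp2* with 94.95 ± 6.51 at ZT14 and 43.5 ± 1.99 at ZT22 (q = 0.0173). *Usp7*, which protects CRY1 from degradation, did not pass (q = 0.801).

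Of 7 other casein kinase genes 5 changed. *Csnk1g2*, a gamma isoform, ran from 60.5 ± 14.5 CPM at ZT6 to 2.79 ± 0.135 at ZT2 (q = 1.77e-09), a fold of 21.7, and was also low at ZT22, 5.04 ± 1.33. *Csnk1g1*, another gamma isoform, ran the other way, from 79.0 ± 11.4 at ZT14 to 33.2 ± 7.16 at ZT6 (q = 0.00365). Of 5 other kinases 3 changed, among them both catalytic subunits of AMP-activated kinase, which phosphorylates CRY1. *Prkaa2* had 93.8 ± 31.8 at ZT6 and 23.2 ± 5.84 at ZT18 (q = 5.87e-05), and *Prkaa1* had 54.99 ± 6.33 at ZT2 and 20.98 ± 5.09 at ZT6 (q = 0.000314).

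Among 6 phosphatase genes 5 changed. *Ppp1ca*, a catalytic subunit of protein phosphatase 1, showed the largest range of the list, from 426 ± 12.7 CPM at ZT18 to 4.82 ± 1.97 at ZT6 (q = 1.39e-09), a fold of 88.3. It had 66 to 194 reads in the replicates of ZT6 and ZT10 and 2584 to 13751 in the others. The deposited tables differ most at ZT6 and ZT10, and the part of that difference in the *Ppp1ca* values was not tested. *Ppp5c*, which encodes a phosphatase known to act on casein kinase 1 epsilon, ran from 145 ± 41.95 at ZT18 to 13.5 ± 5.28 at ZT2 (q = 1.39e-05). Of 7 ligases that act on other clock proteins 6 changed, led by *Stub1* with 92.1 ± 13.2 at ZT10 and 11.3 ± 1.16 at ZT2 (q = 1.13e-07) and *Mycbp2* with 338 ± 35.9 at ZT2 and 136 ± 7.58 at ZT18 (q = 4.4e-05). For *Ppp1ca*, *Csnk1g2*, *Ppp5c*, *Stub1* and *Ddb1*, the 3 clusters of libraries held at least 97.6% of the variance of the timepoint means.

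**Figure D5:**
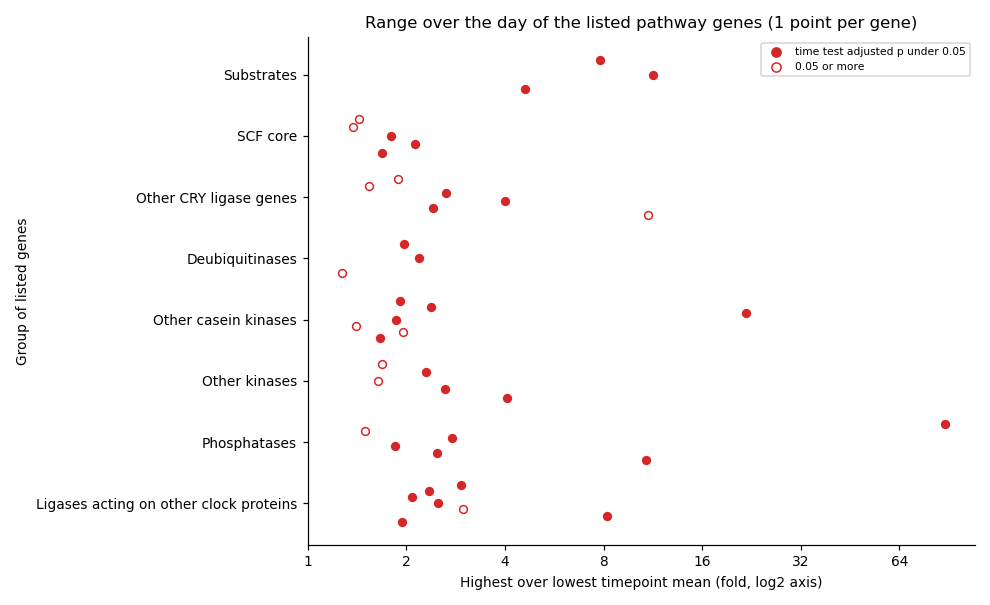
Fold between the highest and the lowest timepoint mean (horizontal axis, log2 scale) of the 42 listed pathway genes, 1 point per gene, by group (vertical axis), filled where the time test had an adjusted p under 0.05. Most genes lie between 1 and 4, and *Ppp1ca* (88.3) and *Csnk1g2* (21.7) lie farthest out.

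The genes whose log2 CPM followed each of the 6 changing genes most closely over the 18 replicates were sought among 15759 genes, as a description in which all values share libraries, depth and clusters. For *Cry1* they were the pseudogene *Rpl28-ps3* (Pearson's r = 0.944), the homeobox gene *Dlx6* (0.940) and *Serbp1* (0.939). For *Cry2* they were *Susd4* (0.945), the pseudogene *Cd9-ps* (0.924) and the transcription factor gene *Ikzf4* (0.924), and for *Csnk1d* a gene without a symbol (ENSMUSG00000066944, 0.935), *Cttn* (0.932) and *Cyb561* (0.924). *Csnk1e* was followed by *Traf3ip1* (0.911), *Rragc* (0.892) and *Igfbp5* (0.886), *Fbxl21* by *Lyl1* (0.922), *Cpne2* (0.894) and *Pcsk4* (0.874), and *Btrc* by *Exoc7* (0.926), *Ube2h* (0.922) and *Cntn2* (0.922). Among the 8 genes themselves the closest were *Csnk1d* and *Btrc* (0.882), *Csnk1d* and *Cry2* (0.750) and *Cry1* and *Csnk1e* (0.718), and *Cry1* and *Cry2* had r = -0.164. These correlations describe 18 libraries in 3 clusters and were not tested.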

How the data were processed

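RNA-seq of laser-captured SCN came from 18 replicates, each sequenced in 3 lanes (54 lane samples). The authors amplified about 1 ng of RNA with the SMARTer protocol, used GSNAP for alignment to mm10 and HTSeq 0.5.4p1 for gene counting. The deposited count table holds whole-number counts for 30031 genes with lanes combined, 15412981 to 35820945 per replicate. A second deposited table gives normalized signal for 31077 genes, in which each column of counts was divided by its size factor (DESeq2). In each column 100% of its values were whole multiples of 1 read (tolerance 0.001), and at ZT2, ZT14, ZT18 and ZT22 the recovered reads equalled the counts for at least 92.7% of genes present in both, against at most 12.1% at ZT6 and ZT10. At those timepoints the recovered reads of the 8 genes were 82.9% to 99.0% of the counts, lowest for *Btrc*, *Fbxl21* and *Cry1*. The count test on recovered reads called 9367 of 20822 genes over time.

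The count table was used throughout. The 18941 genes that had a read in more than 6 of the 18 replicates were fitted with edgeR 4.0.16 in R 4.3.3 (TMM, quasi-likelihood, all 18 replicates, 1 factor for timepoint), giving the time test, 15 pairs of timepoints and light against dark, each with Benjamini-Hochberg adjustment over all genes and a threshold of 0.05. JTK_CYCLE was rewritten in Python 3.11.15 (24 hr, 6 lags, exact null, Bonferroni over lags). Ratios were taken as log2 of CPM plus 0.5 and compared by exact permutation over replicates. Gene models were GENCODE M21 (GRCm38), and promoters came from RefSeq. DESeq2 1.42.0 and limma 3.58.1 served as alternatives. The code was tested on simulated data.

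The 8 genes, the gene lists, the tests and the alternatives were chosen with earlier results of these data known. The rule for named genes took the 8 genes and those overlapping them, in each pathway group up to 2 genes with the smallest time test p among those that passed along with the period genes, and for each of the 8 that passed the 3 genes of highest Pearson r (log2 CPM, mean of at least 10 counts). *Cul1*, *Usp7* and the markers were named beside it. The lists leave out 2 genes whose results are not reported here.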

Additional observations from a re-analysis of the deposited data

Results flagged for a closer look

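In 3 of the sets of 9 light or 9 dark replicates, 1 library lay farther from the others than Dixon's test allows at the 95% level (critical value 0.493 for 9 values), on the log2 CPM scale. In sets of values from 1 normal distribution chance alone marks about 1 in 20, and 16 sets were examined. Each set here pooled 3 timepoints whose means can differ, so that rate need not hold. Among the dark replicates, ZT18 C was the lowest for *Csnk1e* (log2 CPM 4.64) and for *Btrc* (log2 CPM 5.82). It was the library with the fewest reads and the one farthest out on the third component, and leaving it out lowered the q of the light and dark comparison of *Btrc* from 0.0174 to 0.00173 and left that of *Csnk1e* at 0.00303. Among the light replicates, ZT2 A was the lowest for *Fbxl21* (log2 CPM 3.75), with 236 reads against 713 and 1017 in ZT2 B and C. Why these libraries lay apart was not tested.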

How the results depend on the processing

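Without ZT6 and ZT10, the timepoints at which the deposited tables differ most, the members past the time test fell from 6 to 1 and the listed pathway genes from 30 to 19. That fit had fewer samples, and the share of all genes past the test fell from 44% to 28.6%. The light minus dark ratio differences then became 0.54 (*Cry1* to *Cry2*, exact permutation p = 0.191), -0.46 (*Csnk1d* to *Csnk1e*, p = 0.0909) and -0.33 (*Btrc* to *Fbxw11*, p = 0.145), and for ZT2 against ZT22 alone 0.21 (exact permutation p = 0.7), -0.22 (p = 0.5) and -0.37 (p = 0.2). Leaving out each replicate in turn gave 4 to 7 members past the time test, 27 to 31 pathway genes, 18 to 32 of 120 pair calls, 0 inside clusters, 5 to 6 members between light and dark and 3 to 6 cycling, and ratio differences of 1.08 to 1.41, -1.21 to -0.93 and -0.57 to -0.40. With the replicate letter as a replicate block, 6 members passed the time test, 22 pair tests were called, 4 members cycled and 30 pathway genes passed, so the block changed none of these counts by over 1.5 times. Of 45 pairs of libraries with the same letter, 1 had deviations from the timepoint means correlated above 0.1 (range -0.191 to 0.104). With 3 letters possible, 9 of 18 replicates correlated best with a library of their own letter. Whether the letters mark a batch or a pairing was not tested. Of single genes, *Csnk1d* missed the time test on the recovered reads (q = 0.102) and *Btrc* under upper-quartile scaling (q = 0.0673) and DESeq2 size factors (q = 0.0504). *Csnk1d* missed the light and dark test under upper-quartile scaling (q = 0.0502). Limma's cosinor regression, the deposited normalized values and the recovered reads called *Cry2* cycling in place of *Csnk1d*, and with the JTK_CYCLE p adjusted over all genes 3 members cycled, without *Csnk1d*. None of the 3 ratio differences changed sign under the alternatives recomputed. The 8 genes had at least 236 reads in every library.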
